A study of Mus musculus with 4 samples.

Results

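Lymphatic endothelial cells line the vessels that drain fluid and leukocytes from tissue. In 4 single-cell RNA-seq libraries of the mouse digit they were 468 cell barcodes, out of 5309 endothelial barcodes and 39266 barcodes that passed the quality filters. The unamputated library held 221 of them, and the libraries taken 12, 17 and 28 days post amputation (dpa) held 167, 46 and 34. A filtered barcode had at least 500 genes, at least 1000 UMIs (unique molecular identifiers, each counting 1 captured RNA molecule) and at most 10% mitochondrial UMIs. An endothelial barcode had, in addition, no UMI of Ptprc (the leukocyte antigen CD45) and at least 1 UMI of Cdh5 or Pecam1 (VE-cadherin and CD31, adhesion molecules of all endothelium). The lymphatic cells were chosen by their summed UMIs of 3 genes, Mmrn1, Prox1 and Reln, which had to reach 3. That sum also had to exceed the sum of 4 capillary and arterial genes (Gpihbp1, Sox17, Dll4 and Prnd) and the sum of 4 venular genes (Selp, Ackr1, Sele and Tmem252). The same comparison of sums gave 1033 capillary and arterial cells and 1584 venular cells, together called blood endothelial cells here. Because measured values chose the cells, the levels of these genes and each contrast of lymphatic with blood endothelial cells are descriptions and carry no test.

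Prox1, a homeobox transcription factor, sets and maintains lymphatic identity, and the receptor tyrosine kinase VEGFR-3, encoded by Flt4, responds to VEGF-C to drive lymphatic growth. Blind-ended capillaries, rich in the hyaluronan receptor Lyve1, take up fluid and release the chemokine CCL21, which guides dendritic cells into the vessel. They drain into collecting vessels, which have valves built under the control of the transcription factors Foxc2 and Gata2.

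The study followed the mouse digit after amputation through the second phalanx (P2), a level at which the digit scars and does not regrow. All mice were wild-type FVB/NJ, 8 weeks old, with males and females pooled according to the labels, which do not give the number of mice behind a library. Unamputated digits served as the control, and the 12, 17 and 28 dpa libraries came from digits cut at this level. Cells were released from hand-dissected tissue by trypsin and collagenase I, freed of red cells by lysis and sorted for viability with propidium iodide, and RNA was captured with 10x Genomics 3' version 3 chemistry. Each condition was 1 library, so no difference between conditions can be tested. The 95% intervals given here are exact (Clopper-Pearson for shares, Poisson for levels, conditional binomial for ratios) and cover counting error only, not the spread between animals. The number of lymphatic cells in the tissue and the efficiency of their release cannot be told apart.

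The libraries differed in depth and in sex. The lymphatic cells had a median of 13040, 7602, 7304 and 5014 UMIs in the unamputated, 12, 17 and 28 dpa libraries, the order used for every set of 4 values below. Their summed UMIs were 3619759, 1714790, 384801 and 225194. Against the pooled sexes of the labels, Xist, the female RNA of the inactive X, had 1113 UMIs in the lymphatic cells at 12 dpa and 0 in the other 3 libraries. Summed UMIs of 4 Y-linked genes were 1397, 0, 125 and 71. Sex and the 12 dpa stage cannot be told apart. Across all barcodes, 277 sequences occurred in 2 libraries and 1 in 3 libraries, none of them in more than 1 set of lymphatic cells. By the scores of the doublet caller Scrublet, 17.6, 7.19, 69.6 and 61.8% of the lymphatic cells were marked, against 12.8, 7.04, 8.41 and 12.2% of all filtered cells. The shares of all filtered cells were fixed in advance and are not detected rates. The highest scores of a library were marked until 0.8% of its cells per 1000 barcodes was reached. The marked cells were kept. Values without them are given for the shares, the counts, the lists that moved and several ranked genes at 17 and 28 dpa, where 14 and 13 cells were left unmarked. Of these, 8 and 1 met the rule through Reln alone, and the 8 held 66.8% of the unmarked UMIs at 17 dpa. In 7 of the 8 there were at least 100 UMIs of fibroblast markers, so values without marked cells at 17 dpa largely describe cells whose label the other lymphatic genes go against.

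The label was checked against 4 other lymphatic genes that the rule did not read: Ccl21a, Flt4, Lyve1 and Pdpn (podoplanin, a membrane glycoprotein). At least 2 of these 4 genes had a UMI in 417 of the 468 cells (89.1%). The share was 97.4% (415 of 426) among cells with a UMI of Mmrn1 or Prox1. It was 4.76% (2 of 42) among cells in which Reln alone met the rule, and 29 of these 42 had none of the 4 genes. Reln encodes reelin, a secreted glycoprotein that other cell types make as well. Of the 42 cells, 22 had at least 10 UMIs of Schwann cell markers, 23 had at least 100 UMIs of fibroblast markers, and 29 had a single UMI of Cdh5 and Pecam1 together. The Reln-only cells therefore go against the label. They numbered 23, 6, 10 and 3 in the 4 libraries, and the main results are given both with all 468 cells and for the 426 cells with Mmrn1 or Prox1 (198, 161, 36 and 31). At the edge of the rule, at least 2 of the 4 genes were found in 6 of 20 cells with a marker sum of 2, 9 of 18 with a sum of 3, 20 of 26 with a sum of 4, and 388 of 424 (91.5%) with 5 or more.

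**Figure D1:**
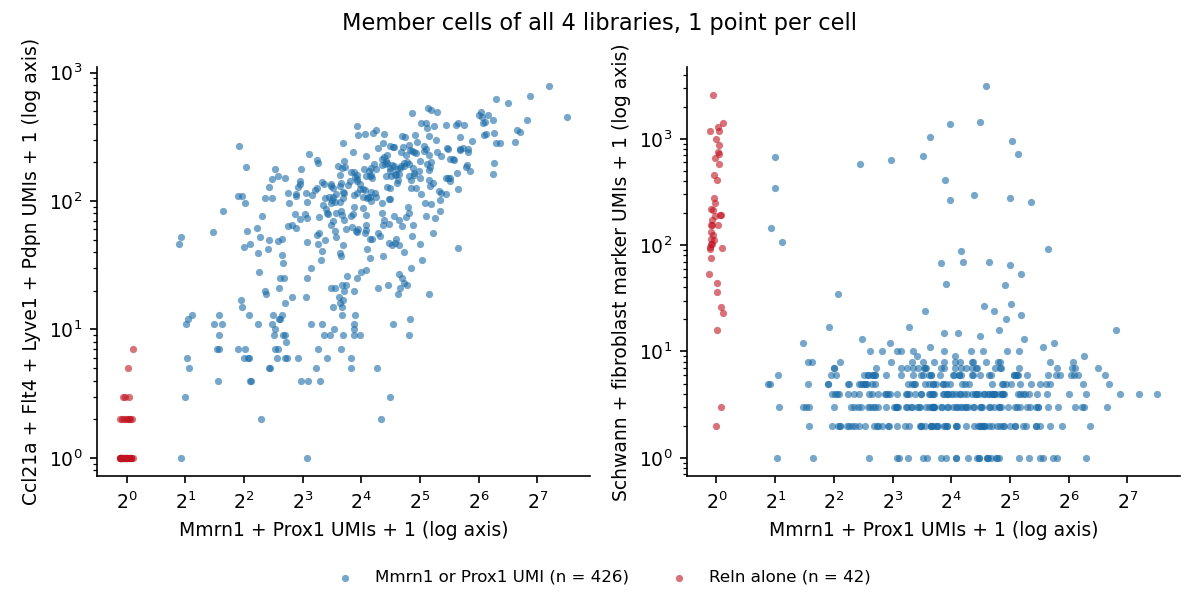
UMIs per lymphatic cell on log scales, 1 point a cell, with 1 added to each sum and points spread slightly sideways. The horizontal axes give Mmrn1 plus Prox1, and the vertical axes give the 4 other lymphatic genes (left) and Schwann cell plus fibroblast markers (right). The 426 cells with Mmrn1 or Prox1 (blue) lie high in the left panel, and the 42 Reln-only cells (red) lie low there and mostly high in the right panel.

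The 3 genes of the rule were usually found together. All 3 had a UMI in 359 of the 468 cells (76.7%), in 186, 125, 30 and 18 cells by library. The median marker sum was 30, 14, 11.5 and 12 UMIs. Mmrn1, which encodes the secreted glycoprotein multimerin 1 (chr6:60924976-60989378, plus strand, GRCm38), had a UMI in 194, 151, 33 and 29 cells. Its summed level was 908, 807, 655 and 844 CPM, counts per 1000000 UMIs of the lymphatic cells of that library. Prox1 (chr1:190118035-190170714, minus strand) had a UMI in 195, 147, 33 and 28 cells and a level of 697, 641, 582 and 511 CPM. Reln (chr5:21884454-22344702, minus strand) had a UMI in 214, 153, 45 and 25 cells and a level of 848, 623, 556 and 595 CPM. Capillary and arterial genes of the rule were at 0 UMIs in 153, 132, 36 and 28 of the cells and venular ones in 201, 157, 43 and 34.

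Lymphatic cells were a larger share of the endothelium at 12 dpa than in the other libraries, and a smaller one at 17 and 28 dpa. They made up 10.5% (9.22 to 11.9) of endothelial cells in the unamputated library and 14.4% (12.4 to 16.5) at 12 dpa. At 17 dpa the share was 4.66% (3.43 to 6.16), and at 28 dpa it was 3.23% (2.24 to 4.48). The intervals at 17 and 28 dpa overlapped each other and lay below those of the unamputated and 12 dpa libraries, which did not overlap. Among cells with Mmrn1 or Prox1 the shares were 9.41, 13.9, 3.64 and 2.94%. After each cell was thinned to 3000 UMIs, which removes the difference in depth, they were 9.34, 12.3, 3.68 and 2.84%. The endothelium itself was 17.6, 16.7, 11.4 and 9.03% of filtered cells, lower at 17 and 28 dpa. Of all filtered cells, lymphatic cells were 1.85% (1.61 to 2.11), 2.41% (2.06 to 2.79), 0.529% (0.388 to 0.705) and 0.291% (0.202 to 0.407). Set only against the capillary and arterial and the venular cells, they were 15.1, 22.0, 10.3 and 8.13% of the 3 classes. The order of the libraries was 12 dpa, unamputated, 17 dpa and 28 dpa in each of these lymphatic shares. Without the cells marked as doublets the shares of endothelium at 17 and 28 dpa were 1.60 and 1.49%.

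**Figure D2:**
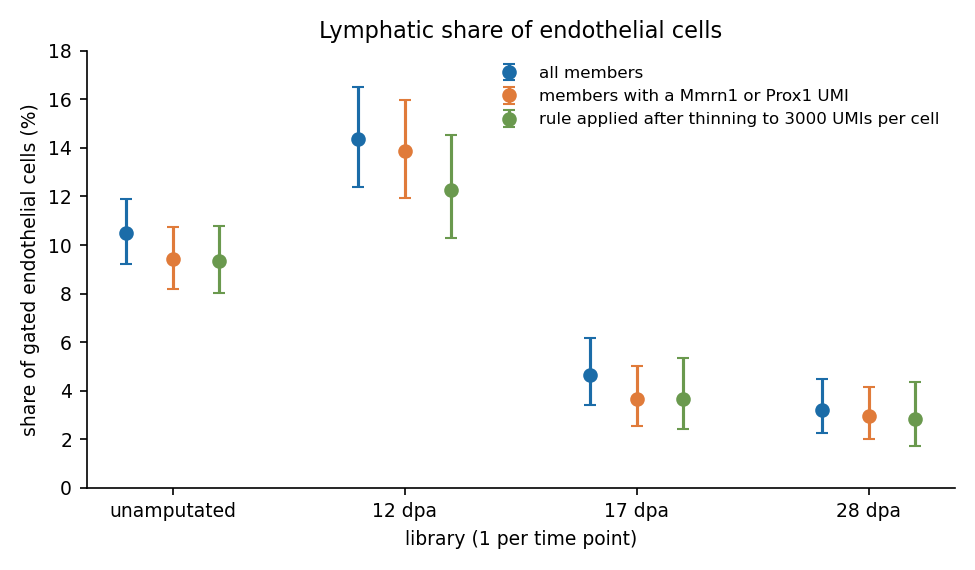
Lymphatic cells as a percentage of endothelial cells (vertical axis) in the 4 libraries (horizontal axis), 1 library a condition, with exact 95% binomial intervals. All lymphatic cells, those with Mmrn1 or Prox1 and all after thinning to 3000 UMIs are drawn side by side. All 3 series are highest at 12 dpa and lowest at 28 dpa.

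A known lymphatic programme was high in these cells and low in blood endothelial cells of each library, as the choice of cells favours. Of 7860 genes with at least 20 CPM, 241 (3.07%) were at least 2-fold higher than in both blood endothelial classes in all 4 libraries, and 197 (2.51%) were at least 2-fold lower. With the 426 Mmrn1 or Prox1 cells, 239 (3.08%) and 256 (3.3%) of 7753 were. Of 19 measured genes of a lymphatic identity list that leaves out the rule's genes, 13 were in the higher set and 0 in the lower. Ccl21a stood furthest apart, with 8124, 8920.0, 3734 and 1705 CPM against 0.737, 0.887, 0 and 0 CPM in capillary and arterial cells and 30.0, 58.4, 0.810 and 0 CPM in venular cells. The file holds near-identical copies of this chemokine gene, so its count may mix them. Flt4 (chr11:49609263-49652739, plus strand) had 524, 594, 340.4 and 289 CPM in lymphatic and 41.0, 41.1, 33.3 and 20.5 CPM in capillary and arterial cells. Lyve1 (chr7:110850607-110863239, minus strand) had 581, 492, 247 and 444 CPM against 17.1, 29.3, 11.6 and 3.07 CPM. Podoplanin, Maf (a transcription factor), Tbx1 (a T-box factor), Nts (neurotensin) and Pard6g (a cell polarity protein) were in the same set.

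Beyond that list, the genes furthest above both blood classes by the smallest of 8 ratios (2 classes in 4 libraries) included signalling and traffic genes. Il7, the cytokine that lymphocytes need to survive, had log2 ratios of 5.63 to 6.69 and lymphatic levels of 110.2, 100.3, 88.4 and 102 CPM. Sema3d, a secreted guidance cue, had ratios of 5.30 to 7.43. Dtx1, a ubiquitin ligase that modulates Notch, had 5.63 to 6.60. Meis2, a homeobox factor, had 5.56 to 7.39. Scn3a, a subunit of a voltage-gated sodium channel, had 5.47 to 8.28. In the other direction, Flt1, the VEGF-A decoy receptor VEGFR-1, had ratios of -5.71 to -5.05 and 25.7, 21.0, 23.4 and 22.2 CPM in lymphatic cells. Aplnr, the apelin receptor of sprouting and venous endothelium, had -6.51 to -4.83. Of 15 measured blood endothelial markers 6 were in the lower set, Plvap (the protein of capillary diaphragms) and Nos3 (endothelial nitric oxide synthase) among them. Of 18 pan-endothelial genes 5 were too, among them Eng (endoglin, a BMP co-receptor), Esam and Ptprb.

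**Figure D3:**
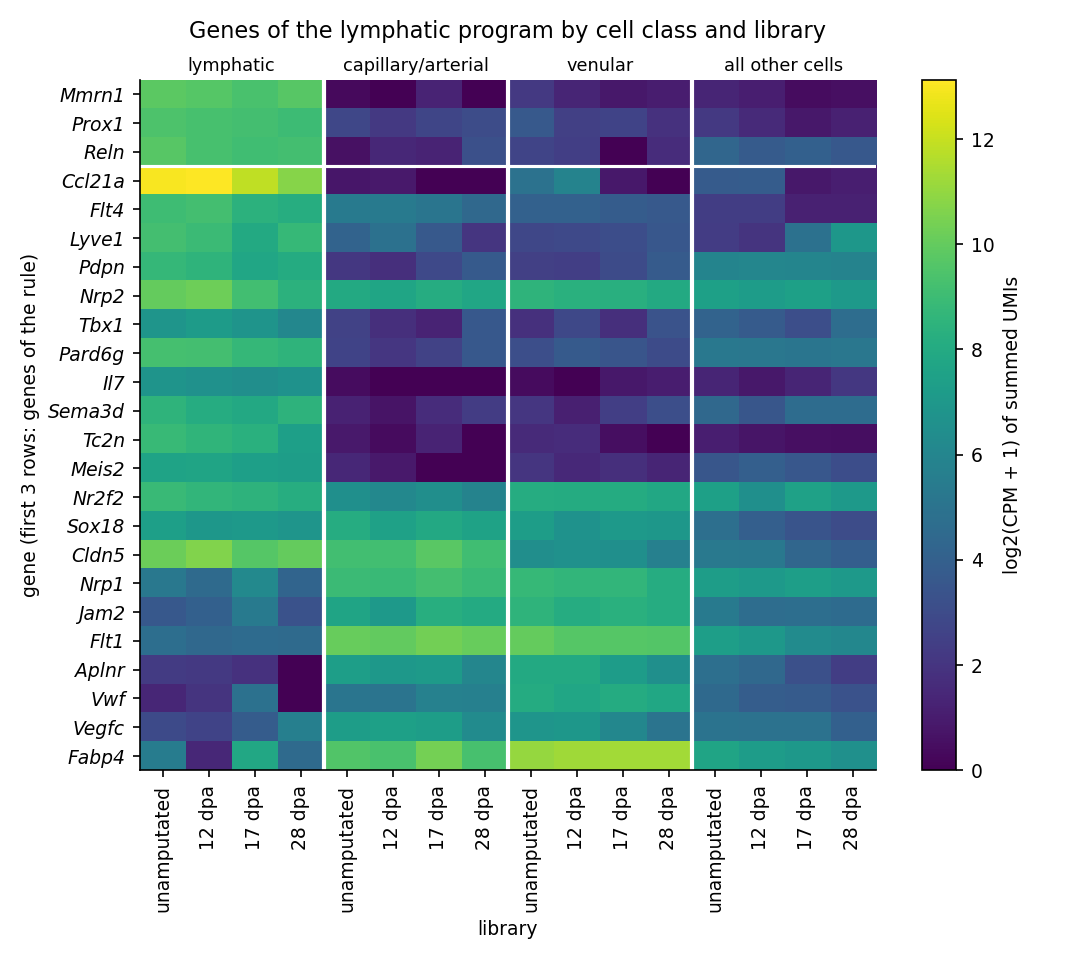
Heat map of log2(CPM + 1) for lymphatic, blood endothelial and other markers (rows) in lymphatic, capillary and arterial, venular and all other cells of each library (columns). Il7 and Tc2n are bright in the lymphatic columns and near 0 elsewhere, Ccl21a is brightest in the lymphatic columns with some signal in venular cells, while Flt1 and Aplnr are bright in the blood endothelial columns.

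Over the time course, no gene of the lymphatic identity list was past the 2-fold threshold at 12 dpa, and several were lower at 28 dpa. A gene counts as past the fold here if it has at least 20 CPM in the higher library, a CPM ratio of at least 2 and a 95% interval of the ratio that lies on 1 side of 1. Of the 19 measured genes, 0 were past the fold at 12 dpa, 2 were lower at 17 dpa (Ccl21a and Lyve1) and 4 were lower at 28 dpa (Ccl21a, Nrp2, Maf and Stab1), and none was higher. Among all genes, 3.24, 3.6 and 5.99% were past the fold downward in the 3 comparisons, and 0.636, 5.25 and 5.51% upward. The list's median log2 ratios of CPM plus 1 were -0.19, -0.41 and -0.55, beside -0.08, 0.00 and -0.11 for all genes. With the Mmrn1 or Prox1 cells alone, 0, 0 and 5 were lower, with Nr2f2 the added gene at 28 dpa, Cp (ceruloplasmin) was higher at 28 dpa, and the medians were -0.30, -0.26 and -0.45. There the background was 1.57, 3.19 and 5.64% downward and 0.922, 4.12 and 5.21% upward. Without the cells Scrublet marked, which were most cells at 17 and 28 dpa, the medians there were -2.09 and -1.12. At 17 dpa 8 of the 14 unmarked cells had Reln alone, and in the 6 unmarked Mmrn1 or Prox1 cells the median was -0.98, with -1.20 in the 12 at 28 dpa. The 3 comparisons share the unamputated library.

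Ccl21a had the largest drop of the list at 28 dpa. Its level was 8124 (8031 to 8217) CPM in unamputated digits, 8920.0 (8779 to 9063) CPM at 12 dpa and 3734 (3544 to 3933) CPM at 17 dpa. At 28 dpa it was 1705 (1539 to 1885) CPM. The log2 ratio to unamputated was -1.12 (95% interval -1.20 to -1.04) at 17 dpa and -2.25 (95% interval -2.40 to -2.11) at 28 dpa. In the Mmrn1 or Prox1 cells the levels were 9530.1, 9534, 5527 and 2145 CPM, and the ratios were -0.79, short of the fold, and -2.15. The share of these cells with a Ccl21a UMI after thinning to 3000 UMIs was 96.4% (92.7 to 98.5), 93.4% (88.2 to 96.8), 80.6% (62.5 to 92.5) and 39.1% (19.7 to 61.5). In capillary and arterial cells that share was at most 0.398%, and in keratinocytes at most 0.545%. At 17 and 28 dpa, Scrublet marked 30 of 36 and 19 of 31 Mmrn1 or Prox1 cells, and Ccl21a had a UMI in 26 of the 30 and 13 of the 19 marked cells, against 3 of 6 and 3 of 12 unmarked cells. The marked cells at 17 and 28 dpa had median depths of 6346 and 3569 UMIs, against 6554.5 and 6133 in the unmarked ones. Over all lymphatic cells the log2 ratio at 28 dpa was -3.69 without the marked cells and -1.63 with the mean of per-cell CPM in place of summed UMIs. Their part in the change was not tested further.

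Other genes of the identity list were lower at 28 dpa along with Ccl21a. Nrp2, the VEGF-C co-receptor neuropilin 2, had 1051, 1209, 577 and 342 CPM, a log2 ratio of -1.62 (95% interval -1.97 to -1.30) at 28 dpa. Maf had 588, 681, 314 and 253 CPM and a ratio of -1.21 (95% interval -1.62 to -0.84). Stab1, a scavenger receptor, had 200.3, 250.2, 164 and 79.9 CPM and -1.31 (95% interval -2.09 to -0.65). Each had its lowest level at 28 dpa, while 12 dpa lay at or above unamputated. Mrc1, the mannose receptor, is on the leukocyte traffic list and had 112, 99.7, 31.2 and 8.88 CPM, with ratios of -1.81 and -3.51 (95% interval -6.70 to -1.79). Macrophages also carry Mrc1 and Stab1, and the macrophage markers summed over the lymphatic cells were 56.4, 39.1, 135 and 169 CPM. Their part in these levels was not tested. Flt4 itself went from 524 to 289 CPM, a ratio of -0.86 (95% interval -1.24 to -0.50), short of the fold. Lyve1 had a ratio of -0.39 at 28 dpa, Pdpn -0.64, and Cldn5, the tight junction protein claudin 5, -0.15. Il7 had -0.11. Lyve1 was lowest at 17 dpa and not at 28 dpa. In the 426 Mmrn1 or Prox1 cells its ratio at 17 dpa was -0.90, short of the fold.

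**Figure D4:**
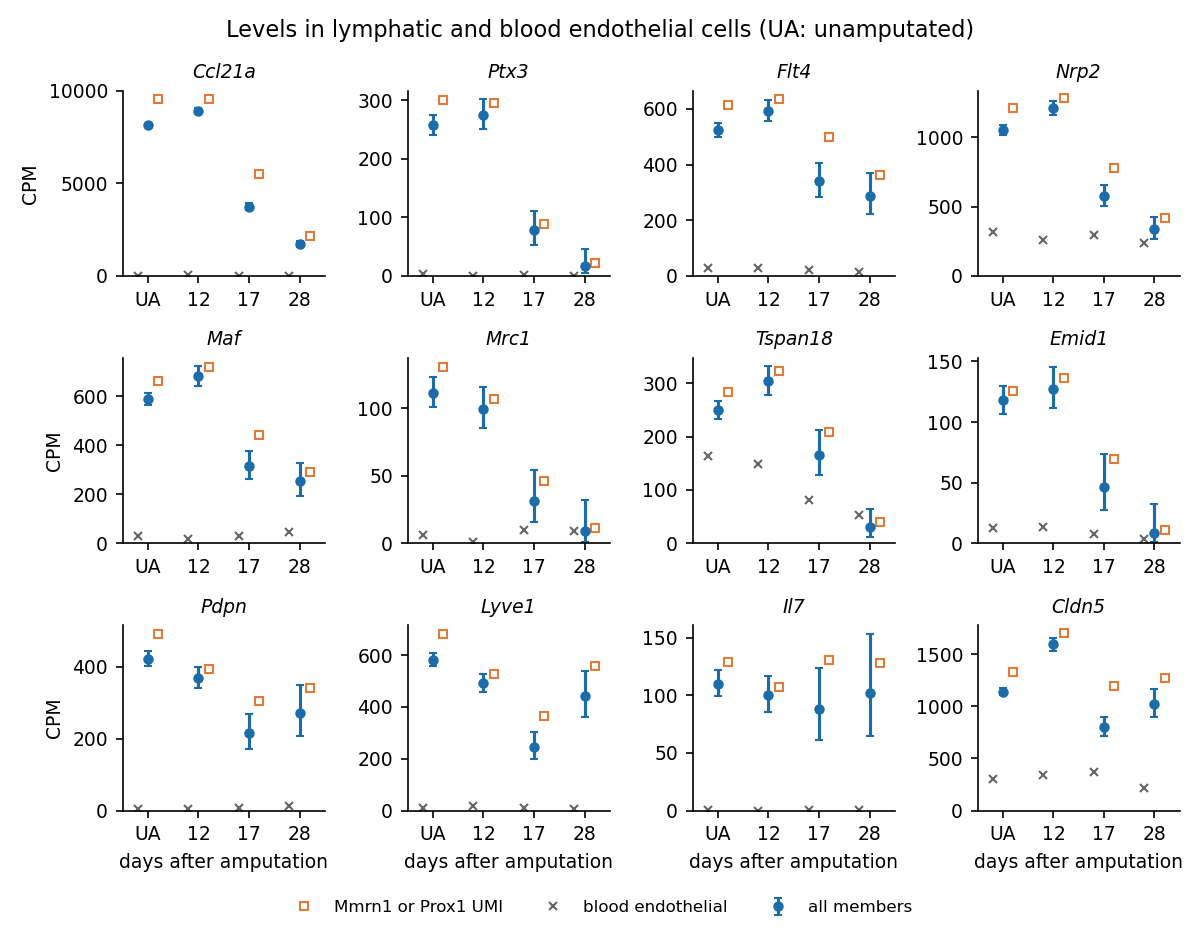
Levels of 12 genes in CPM (vertical axes) in the 4 libraries (horizontal axes), with dots and exact 95% Poisson intervals for all lymphatic cells, squares for those with Mmrn1 or Prox1 and crosses for blood endothelial cells. Ccl21a, Ptx3, Nrp2, Maf, Mrc1, Tspan18 and Emid1 are lowest at 28 dpa, while Il7 lies at 88.4 CPM at 17 dpa and 102 CPM at 28 dpa.

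At equal depth per cell, fewer lymphatic cells held a Ptx3 UMI at 17 and 28 dpa, while the intervals of the Lyve1 share overlapped in Mmrn1 or Prox1 cells. Ptx3, which encodes pentraxin 3, a soluble pattern receptor that lymphatic endothelium releases, had a UMI in 41.8, 43.4, 16.1 and 4.35% of thinned Mmrn1 or Prox1 cells (194, 152, 31 and 23 cells). For Flt4 the shares were 82.5, 78.9, 61.3 and 60.9%, for Pdpn 74.7, 63.2, 51.6 and 60.9% and for the fibronectin receptor Itga9, which valves need, 77.8, 73.7, 61.3 and 60.9%. The 95% intervals of Flt4, Pdpn and Itga9 at 28 dpa overlapped those of unamputated digits. Lyve1 was found in 59.3, 57.9, 54.8 and 52.2%, with an interval of 52.0 to 66.3% in unamputated digits and 30.6 to 73.2% at 28 dpa. In capillary and arterial cells Lyve1 was found in 2.59, 6.13, 1.46 and 0% and in keratinocytes in 0.285, 0.182, 0 and 1.20%. Over all lymphatic cells it was 53.5, 56.1, 41.5 and 46.2%, and 2 of 14 (14.3%) at 17 dpa without the marked cells. For Flt4 the share at 17 dpa was 48.8%, and 2 of 14 without the marked cells. Of those 14 cells, 8 had Reln alone and no UMI of either gene before thinning, while each gene was found in 3 of the 6 Mmrn1 or Prox1 cells.

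Of the collecting vessel and valve list, Foxc2, Gata2 and Neo1 were past the fold upward at 28 dpa, where 5.51% of all genes were. The list's median log2 ratios were -0.06, -0.31 and -0.07 over 17, 18 and 17 genes, with 0 higher and 1 lower of 13 at 12 dpa, 2 higher and 2 lower of 14 at 17 dpa and 3 higher and 0 lower of 14 at 28 dpa past the fold. The Mmrn1 or Prox1 cells gave 0 higher and 1 lower of 14 at 12 dpa, 2 higher and 0 lower of 16 at 17 dpa and 3 higher and 0 lower of 15 at 28 dpa. Over all genes the shares past the fold were 0.636, 5.25 and 5.51% upward and 3.24, 3.6 and 5.99% downward. In Mmrn1 or Prox1 cells they were 0.922, 4.12 and 5.21% upward and 1.57, 3.19 and 5.64% downward. Without marked doublets the median at 17 dpa was -1.38, and -0.85 in the 6 unmarked Mmrn1 or Prox1 cells. Foxc2 had 11.3, 16.3, 15.6 and 44.4 CPM, a ratio of 1.88 (95% interval 0.81 to 2.99) at 28 dpa, and without the cell holding most of its UMIs 1.60. Its share of thinned Mmrn1 or Prox1 cells was 3.61, 2.63, 3.23 and 21.7%, at 28 dpa with an interval of 7.46 to 43.7%. Gata2 had 25.1, 21.6, 28.6 and 75.5 CPM and a ratio of 1.55 (95% interval 0.75 to 2.34). In thinned cells it was found in 5.67, 3.95, 19.4 and 17.4%, with an interval of 4.95 to 38.8% at 28 dpa that held the unamputated share. The Mmrn1 or Prox1 cells had ratios of 1.99 for Foxc2 and 1.72 for Gata2. Both rest on few molecules, since 1 UMI at 28 dpa is 4.44 CPM.

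Neo1, the netrin and BMP co-receptor neogenin, was past the fold in all 3 comparisons. It had 89.8, 36.2, 418 and 306 CPM, with ratios of -1.29 (95% interval -1.73 to -0.92) at 12 dpa, 2.21 (95% interval 1.94 to 2.50) at 17 dpa and 1.76 (95% interval 1.37 to 2.15) at 28 dpa. The levels at 17 and 28 dpa lay above both earlier libraries, and without the richest cell the 3 ratios were -0.93, short of the fold, 1.44 and 1.29. In blood endothelial cells they were -0.67, -0.01 and 0.46. In Mmrn1 or Prox1 cells they were -1.33, 2.59 and 1.96. Neo1 also varied within a library. In thinned Mmrn1 or Prox1 cells with a Lyve1 UMI against those without, it had 29.0 against 194, 22.7 against 62.5, 255 against 952 and 194 against 333 CPM. At 17 and 28 dpa these were 13 against 40 and 7 against 11 UMIs. Before thinning, 1 cell held 45.8% of the Neo1 UMIs of Mmrn1 or Prox1 cells at 17 dpa. Foxp2, a forkhead factor of collecting vessels, had 55.1 against 219, 37.9 against 115, 19.6 against 95.2 and 55.6 against 60.6 CPM in the same split. At 17 and 28 dpa the Foxp2 values were 1 against 4 and 2 against 2 UMIs. Ccl21a went the other way, with 11038 against 9000, 10943 against 9557, 11333 against 4262 and 2556 against 515 CPM. Cells with Lyve1 thus had the lower Neo1 and the higher Ccl21a in all 4 libraries. The direction was not particular to Ccl21a. Flt4 and Mmrn1 were also higher with Lyve1 in all 4 libraries, with 1000 against 214 CPM for Flt4 at 17 dpa. Pdpn was higher and Prox1 lower with Lyve1 in all libraries but 28 dpa. A cell with no Lyve1 UMI at this depth may still express it. The numbers of cells with and without Lyve1 were 115 and 79, 88 and 64, 17 and 14, and 12 and 11. The rest of the valve list, without Neo1 and Foxp2, differed in direction between libraries. It summed to 1904 against 1886, 1568 against 1708, 1784 against 1643 and 1528 against 1909 CPM with and without Lyve1. With both genes the list summed to 1988 against 2299.6, 1629 against 1885, 2059 against 2690.5 and 1778 against 2303 CPM. Of the 18 genes, 9, 5, 8 and 5 were higher in cells with Lyve1, and 9, 12, 9 and 10 were lower. Foxc2 had 17.4 against 4.22 CPM in unamputated cells, from 6 UMIs against 1.

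**Figure D5:**
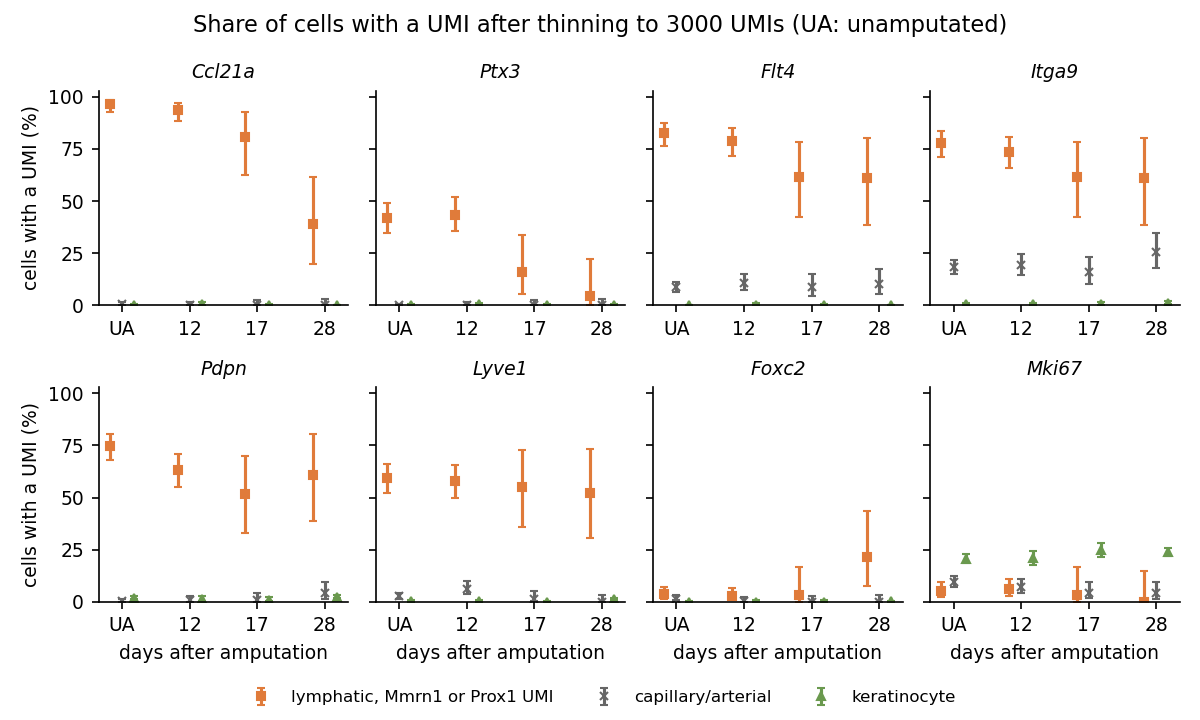
Share of cells (vertical axes, %) with a UMI of 8 genes after thinning to 3000 UMIs, with exact 95% binomial intervals, in lymphatic cells with Mmrn1 or Prox1, capillary and arterial cells, and keratinocytes, by library. The Ccl21a share of lymphatic cells is 39.1% at 28 dpa against 96.4% in unamputated digits, and the Lyve1 share lies between 52.2 and 59.3%.

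Among growth factor receptors, Kdr was lower at 28 dpa along with the co-receptor Nrp2, and the Tie receptors were within the fold. The VEGF-C axis list had median ratios of -0.10, -0.17 and -0.67, with 0 higher and 0 lower of 9 at 12 dpa, 0 higher and 0 lower of 10 at 17 dpa and 2 higher and 3 lower of 12 at 28 dpa past the fold. The Mmrn1 or Prox1 cells gave 0 higher and 0 lower of 8 at 12 dpa, 1 higher and 0 lower of 9 at 17 dpa and 0 higher and 2 lower of 11 at 28 dpa, with a median of -0.48 at 28 dpa. Past the fold in the same comparisons were 0.636, 5.25 and 5.51% of all genes upward and 3.24, 3.6 and 5.99% downward, and in Mmrn1 or Prox1 cells 0.922, 4.12 and 5.21% upward and 1.57, 3.19 and 5.64% downward. Kdr (VEGFR-2) had 375, 395, 236 and 182 CPM and a ratio of -1.04 (95% interval -1.53 to -0.60) at 28 dpa, which was -0.93, short of the fold, in Mmrn1 or Prox1 cells. Of the ligands, Vegfc was at 6.63, 5.25, 13.0 and 48.8 CPM in lymphatic cells and 157, 173, 158 and 78.9 CPM in capillary and arterial cells. Without the richest cell, the lymphatic Vegfc ratio at 28 dpa changed from 2.71 to 0.51. Pgf (placental growth factor) had 97.0, 103, 57.2 and 35.5 CPM, a ratio of -1.42 (95% interval -2.67 to -0.45). The angiopoietin and Tie list had medians of -0.13, -0.19 and 0.28, with 0 higher and 1 lower of 8 at 12 dpa, 1 higher and 0 lower of 7 at 17 dpa and 0 higher and 0 lower of 8 at 28 dpa past the fold. The counts in Mmrn1 or Prox1 cells were 0 higher and 0 lower of 7 at 12 dpa, 2 higher and 0 lower of 6 at 17 dpa and 1 higher and 0 lower of 8 at 28 dpa. Its receptor Tek (TIE2) had 114, 104, 72.8 and 138 CPM. Tie1, a partner of TIE2, had 199.7, 229.8, 138 and 155 CPM. Angpt2, the ligand that activates TIE2 in lymphatics, had 61.9, 53.7, 148 and 66.6 CPM, highest at 17 dpa, where the ratio was 1.25 (95% interval 0.81 to 1.68) and, without the richest cell, 0.64.

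The leukocyte traffic genes other than Ccl21a and Mrc1 had no common direction. The medians of the whole list were -0.01, 0.00 and 0.43, with 0 higher and 2 lower of 20 at 12 dpa, 5 higher and 3 lower of 22 at 17 dpa and 5 higher and 4 lower of 22 at 28 dpa past the fold. The Mmrn1 or Prox1 cells had medians of -0.08, -0.11 and 0.13 and counts of 0 higher and 1 lower of 20 at 12 dpa, 0 higher and 1 lower of 20 at 17 dpa and 4 higher and 4 lower of 20 at 28 dpa. The shares past the fold were 0.636, 5.25 and 5.51% of all genes upward and 3.24, 3.6 and 5.99% downward, and 0.922, 4.12 and 5.21% upward and 1.57, 3.19 and 5.64% downward in Mmrn1 or Prox1 cells. Without marked doublets the median at 28 dpa was 0.68, and 0.93 in the 12 unmarked Mmrn1 or Prox1 cells. Ackr3, the scavenging receptor for CXCL12 and adrenomedullin, had 239, 204, 221 and 435 CPM, with a ratio of 0.86 (95% interval 0.55 to 1.17) at 28 dpa, short of the fold. Ackr2, which scavenges inflammatory chemokines, had 43.4, 56.0, 15.6 and 44.4 CPM, and was at least 2-fold above both blood classes in all 4 libraries, as were Ackr3 and Il7. S1pr1, the receptor for the lymph-enriched lipid S1P, had 219, 218, 151 and 298 CPM, and Spns2, the S1P exporter, had 102, 96.8, 83.2 and 75.5 CPM. The inflammatory chemokine genes Cxcl1, Ccl2 and Ccl7 had their highest levels at 28 dpa, but most of these UMIs sat in few cells. Cxcl1 had 58.3, 13.4, 299 and 910.3 CPM. Ccl2 had 29.8, 29.2, 205 and 346 CPM. Ccl7 had 13.0, 9.91, 20.8 and 182 CPM. One cell held 76.1% of the Cxcl1 and 97.6% of the Ccl7 UMIs at 28 dpa. In Mmrn1 or Prox1 cells Cxcl1 had 36.0, 13.7, 19.2 and 195 CPM and Ccl7 14.6, 6.86, 0 and 5.59 CPM.

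At 12 dpa, 48 of 7551 genes (0.636%) were past the fold upward and 245 (3.24%) downward. The same comparison in blood endothelial cells gave 0.351% and 0.547%, from 264 capillary and arterial and 328 venular cells against 167 lymphatic cells. The lymphatic counts were 24 and 151 of 7271 genes without the richest cell of each gene, which was not tried in blood endothelium. They were 68 and 116 of 7379 in Mmrn1 or Prox1 cells and 85 and 194 of 7443 without marked doublets. Of the 8 higher genes taken by rank, Cdk8, the kinase of the Mediator complex, had 401, 1654, 886 and 528 CPM and a ratio of 2.04 (95% interval 1.95 to 2.14), beside 2.09 in blood endothelial cells. Camk1d, a calcium-dependent kinase, had a ratio of 1.66 (95% interval 1.59 to 1.73) and 1.28 in blood endothelium. Cmss1, a ribosomal small subunit factor, had 1.64 and 1.32. These 3 had a UMI in all 167 cells and were higher in both kinds of endothelium. Hist1h4d, a histone H4 gene, had 1.96 and Gm15564 1.89, beside 1.65 and 1.49 in blood endothelial cells. The remaining 3 rested on 1 cell each, which held 88.2% of the Ltbp2, 97.2% of the Inhba and 74.5% of the Enpp1 UMIs.

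The 8 genes that were lowest at 12 dpa relative to unamputated depended in part on the Reln-only cells. Mlip, a lamin-interacting protein, had 58.8, 0.583, 49.4 and 31.1 CPM in all lymphatic cells and no UMI in the Mmrn1 or Prox1 cells of any library. Apod (apolipoprotein D), with 69.4% of its unamputated UMIs in 1 cell and a ratio of -1.87 without that cell, had 189, 15.2, 837 and 981 CPM over all and 34.0, 4.99, 7.70 and 101 CPM in Mmrn1 or Prox1 cells. Egfl8, a secreted EGF-like protein, had 64.6, 8.75, 177 and 79.9 CPM over all and 1.94, 1.87, 42.3 and 5.59 CPM in Mmrn1 or Prox1 cells. Lama2, a laminin chain, had 123, 21.0, 439 and 191 CPM and 17.5, 16.8, 61.6 and 72.6 CPM. The ratios of Egfl8 and Lama2 were -2.75 and -2.50 over all lymphatic cells and -0.04 and -0.05 without the Reln-only cells. Ptprd, Kif21a, Ebf2 and Cxcl14 had ratios of -2.97, -2.92, -2.64 and -2.51, and -1.56, -1.52, -1.37 and -1.73 without them. Schwann markers summed to 677, 68.2, 660.1 and 164 CPM over all lymphatic cells and 7.78, 34.9, 115 and 33.5 CPM over Mmrn1 or Prox1 cells. Their part in the results was not tested beyond these values.

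At 17 dpa, 418 of 7968 genes (5.25%) were past the fold upward and 287 (3.6%) downward, beside 1.19% and 0.922% in blood endothelial cells. Leaving out the richest cell of each gene gave 134 and 230 of 7452 lymphatic genes, and was not tried in blood endothelium. The sets were not matched in size, with 46 lymphatic against 140 capillary and arterial and 262 venular cells. Of the 8 top higher genes, 7 had at least 50% of their UMIs in 1 cell. A single cell held 100% of the Chil1 and 100% of the Tnfsf8 UMIs. The exception was Rarres2, which encodes the chemoattractant chemerin, with 7.74, 5.25, 127 and 79.9 CPM, UMIs in 11 of 46 cells and a ratio of 3.88 (95% interval 3.34 to 4.77). Its ratio was 3.02 in Mmrn1 or Prox1 cells and 2.20 in blood endothelial cells. Ifitm1, an interferon-induced membrane protein, had 2.49, 2.33, 59.8 and 57.7 CPM and a ratio of 4.12, 3.12 without the richest cell. Among lower genes, Tnc (tenascin C, a wound matrix glycoprotein) had 269.9, 179, 52.0 and 84.4 CPM and a ratio of -2.35 (95% interval -3.09 to -1.74). Rapgef5, an exchange factor for Rap GTPases, had 634, 479, 192 and 173 CPM and -1.72 (95% interval -2.08 to -1.39). Shc3, a signalling adaptor, had 59.1, 53.1, 7.80 and 8.88 CPM and -2.77 (95% interval -5.21 to -1.36). Col23a1, a transmembrane collagen, had 160.0, 146, 41.6 and 84.4 CPM and -1.92 (95% interval -2.76 to -1.23). These 4 kept ratios of -1.38, -1.47, -2.43 and -1.43 in Mmrn1 or Prox1 cells, and had 0.04, -0.43, -0.73 and -0.26 in blood endothelium. Without the cells marked as doublets, which leaves 14 cells at 17 dpa, 8 of them with Reln alone, the counts were 930 and 712 of 8359. In this set, mostly Reln-only cells, Tnc had a ratio of -1.50, Col23a1 -2.97 on 3 UMIs, Rarres2 5.24 and Ifitm1 5.89, and Shc3 had no UMI. Runx2 and Ptprd were also among the 8, with ratios of -2.04 and -2.04 that were -0.53 and -0.85 without the marked cells, and Nrg3 and Hpse2 had 99.5 and 95.4% of their unamputated UMIs in 1 cell.

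At 28 dpa, 437 of 7927 genes (5.51%) were past the fold upward and 475 (5.99%) downward, beside 2.7% and 2.62% in blood endothelial cells. Leaving out the richest cell of each gene gave 123 upward and 406 downward of 7361 lymphatic genes, and leaving out marked doublets 498 and 468 of 7681. Neither was tried in blood endothelium. The sets were not matched in size, with 34 lymphatic against 124 capillary and arterial and 260 venular cells. The 8 top higher genes each had at least 50% of their UMIs in 1 cell, Myoc, Opcml, C4b and Pcolce2 all of them. The lower genes, Ptprd apart, were spread over many unamputated cells. Ptx3 had 258, 276, 78.0 and 17.8 CPM, UMIs in 144 unamputated cells and a ratio of -3.79 (95% interval -5.74 to -2.50). Tspan18, a tetraspanin of endothelium, had 249, 304, 166 and 31.1 CPM and a ratio of -2.96 (95% interval -4.32 to -1.95). Emid1, an EMI-domain matrix protein, had 118, 128, 46.8 and 8.88 CPM and -3.59 (95% interval -6.78 to -1.87). Kif26b, a kinesin that acts in Wnt signalling, had 93.9, 117, 20.8 and 0 CPM. With its 0 at 28 dpa set to a floor of 3 UMIs it was 7.05-fold lower, and the 95% interval of its log2 ratio ended at -2.51. Ltc4s, the leukotriene C4 synthase, had 64.1, 123, 28.6 and 0 CPM. It was 4.81-fold lower against the same floor, with an interval that ended at -1.96. The uncharacterised 2610307P16Rik had 139.8, 108, 198 and 13.3 CPM and a ratio of -3.30 (95% interval -5.67 to -1.84). Ptprd, a receptor phosphatase, completed the 8, of which Ccl21a is described above, with 153, 18.7, 36.4 and 13.3 CPM, but 1 cell held 51.8% of its unamputated UMIs. In Mmrn1 or Prox1 cells the ratios were -3.69 for Ptx3, -2.83 for Tspan18 and -3.38 for Emid1. In blood endothelial cells they were -1.69, -1.62 and -1.51, and -2.13 for Kif26b, -1.68 for 2610307P16Rik, -0.88 for Ptprd and -0.14 for Ltc4s. Ccl21a had 17.0 CPM in unamputated blood endothelial cells and no UMI at 28 dpa. In the 13 cells at 28 dpa that Scrublet did not mark, Ptx3 had -3.83 on 2 UMIs and Tspan18 -2.91 on 4, and Emid1 had no UMI.

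The counts of junction, matrix and BMP genes past the fold are set beside shares over all genes of 0.636, 5.25 and 5.51% upward and 3.24, 3.6 and 5.99% downward. For Mmrn1 or Prox1 cells these shares were 0.922, 4.12 and 5.21% upward and 1.57, 3.19 and 5.64% downward. Junction genes had list medians of -0.05, -0.10 and -0.30, with 0 higher and 1 lower of 14 at 12 dpa, 2 higher and 1 lower of 15 at 17 dpa and 1 higher and 2 lower of 14 at 28 dpa past the fold. Without marked doublets the medians at 17 and 28 dpa were -0.58 and -0.76, and -0.38 and -0.77 in the unmarked Mmrn1 or Prox1 cells. Magi1, a scaffold of endothelial junctions, had 1519, 1259.6, 972 and 635 CPM and a ratio of -1.26 (95% interval -1.51 to -1.02) at 28 dpa. Nectin2, an adhesion molecule, had 97.8, 135, 91.0 and 44.4 CPM and -1.12 (95% interval -2.21 to -0.24). Both were also past the fold in Mmrn1 or Prox1 cells, at -1.20 and -1.01. The matrix list had medians of -0.18, 0.10 and -0.28, with 0 higher and 2 lower of 25 at 12 dpa, 4 higher and 0 lower of 25 at 17 dpa and 2 higher and 1 lower of 26 at 28 dpa past the fold. The medians in Mmrn1 or Prox1 cells were -0.13, 0.06 and -0.58, with 0 higher and 0 lower of 25 at 12 dpa, 4 higher and 0 lower of 25 at 17 dpa and 1 higher and 7 lower of 25 at 28 dpa. Fbln5, an elastic fibre protein, had 249, 274, 169 and 79.9 CPM and -1.63 (95% interval -2.40 to -0.97). Timp2, an inhibitor of matrix proteases, lay between 928 and 1022 CPM in the 4 libraries. Ecm1, a secreted matrix protein, went the other way, with 56.6, 67.1, 205 and 284 CPM and ratios of 1.84 (95% interval 1.46 to 2.24) and 2.31 (95% interval 1.90 to 2.74). Blood endothelial cells had 0.79 and 1.59 for Ecm1. The BMP, TGF-beta and Notch list had medians of 0.01, 0.05 and 0.24, with 0 higher and 0 lower of 15 at 12 dpa, 4 higher and 1 lower of 18 at 17 dpa and 5 higher and 0 lower of 19 at 28 dpa past the fold. Id2, a target of BMP signalling, had 34.0, 18.7, 109 and 124 CPM, with ratios of 1.65 (95% interval 1.14 to 2.20) and 1.84 (95% interval 1.22 to 2.47).

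Of the division markers, no Mki67 UMI was found in the lymphatic cells at 28 dpa, the smallest set, while Top2a had 2 UMIs there. Mki67, which marks dividing cells, had 39.0, 44.3, 59.8 and 0 CPM in the lymphatic cells. With its 0 at 28 dpa set to a floor of 3 UMIs, it was 2.92-fold lower than unamputated. Its UMIs were in 31, 18, 6 and 0 cells, and at equal depth in 5.15, 5.92, 3.23 and 0% of Mmrn1 or Prox1 cells. The exact upper bound on the share with a UMI at 28 dpa was 14.8%, above the unamputated share, so a lower share was not detectable at this depth. Top2a, the topoisomerase of dividing cells, had 37.6, 47.2, 13.0 and 8.88 CPM and a ratio of -1.96 (95% interval -5.14 to -0.20) at 28 dpa. Its share of thinned Mmrn1 or Prox1 cells was 6.19, 9.21, 0 and 8.70%, with an interval of 1.07 to 28.0% at 28 dpa that held the unamputated share. The cell cycle list had medians of 0.27, 0.03 and -2.71, with 0 higher and 1 lower of 12 at 12 dpa, 1 higher and 1 lower of 12 at 17 dpa and 0 higher and 5 lower of 10 at 28 dpa past the fold. For the Mmrn1 or Prox1 cells these counts were 1 higher and 0 lower of 11 at 12 dpa, 0 higher and 2 lower of 11 at 17 dpa and 0 higher and 2 lower of 9 at 28 dpa. For this list and those that follow, the background past the fold was 0.636, 5.25 and 5.51% of all genes upward and 3.24, 3.6 and 5.99% downward, and 0.922, 4.12 and 5.21% upward and 1.57, 3.19 and 5.64% downward in Mmrn1 or Prox1 cells. At 28 dpa, 10 of its 19 measured genes had 0 UMIs in 1 of the libraries compared, and with these set to the floor of 3 UMIs the median was -0.24. Interferon response genes had medians of 0.37, 0.22 and 0.33, with 0 higher and 0 lower of 10 at 12 dpa, 1 higher and 1 lower of 9 at 17 dpa and 3 higher and 1 lower of 11 at 28 dpa past the fold, and 0.43, 0.12 and -0.04 in Mmrn1 or Prox1 cells, where the last is 0.11 with genes at 0 UMIs set to the floor. Ifitm3, an antiviral membrane protein, had 766, 1131, 889 and 1354 CPM, and Ifitm2 445, 573, 678 and 906 CPM. Genes induced by tissue dissociation had medians of -0.60, 0.45 and 0.56, with 0 higher and 5 lower of 22 at 12 dpa, 6 higher and 1 lower of 22 at 17 dpa and 6 higher and 0 lower of 22 at 28 dpa past the fold. With the mean of per-cell CPM in place of summed UMIs, the median at 28 dpa was -0.016. The counts in Mmrn1 or Prox1 cells were 0 higher and 2 lower of 22 at 12 dpa, 0 higher and 2 lower of 22 at 17 dpa and 5 higher and 0 lower of 22 at 28 dpa. The medians were -0.57, -0.39 and 0.38 in Mmrn1 or Prox1 cells and -0.45, 0.46 and 0.55 in blood endothelial cells. Without marked doublets the median in all lymphatic cells at 17 dpa was 1.59, and 0.10 in the 6 that had Mmrn1 or Prox1. The immediate early gene Fos had 519.6, 278, 1221 and 1132 CPM. Genes of lipid uptake and oxidation had medians of -0.40, 0.37 and 0.13, with 0 higher and 3 lower of 16 at 12 dpa, 3 higher and 0 lower of 17 at 17 dpa and 2 higher and 0 lower of 17 at 28 dpa past the fold. In the Mmrn1 or Prox1 cells these counts were 0 higher and 3 lower of 16 at 12 dpa, 2 higher and 0 lower of 16 at 17 dpa and 3 higher and 2 lower of 16 at 28 dpa. Genes of antigen presentation had medians of -0.09, 0.26 and -0.01.

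Markers of other cell types were present in the lymphatic cells at varying levels. Fibroblast and tenocyte markers summed to 7471, 4021, 16769.7 and 5906 CPM, and to 4650.3, 2819.9, 8849 and 3345 CPM in Mmrn1 or Prox1 cells, both highest at 17 dpa. All other filtered cells had 24875, 35545, 32985 and 20992 CPM. Mural cell markers, of pericytes and smooth muscle, summed to 429, 346, 579.5 and 1639 CPM, and to 421, 335, 747 and 447 CPM in Mmrn1 or Prox1 cells. Keratinocyte markers summed to 827, 309.7, 182 and 915 CPM, neutrophil markers to 50.3, 4.67, 49.4 and 8.88 CPM and lymphocyte markers to 21.8, 3.50, 0 and 4.44 CPM. The macrophage marker Cd163 and the lymphocyte markers Cd3d, Cd3e and Nkg7 were at 0 UMIs in all 4 libraries. The part of these cell types in the changes over time was not tested.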

How the data were processed

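The deposited files hold raw UMI counts per gene and barcode, 1 filtered 10x matrix per library, made with Cell Ranger 7.1.0 on mm10 per the submitters' processing notes. How barcodes were called is not given in the sources used here. The cells were filtered and classed by the rule given above, and counts were summed over the cells of a class in each library (Python 3.11.15, numpy 2.4.6, scipy 1.17.1, pandas 2.3.3, figures with matplotlib 3.10.9). Levels are UMIs per 1000000 summed UMIs (CPM), and log2 ratios use CPM plus 1. A gene was past the fold at a CPM ratio of 2 or more, at least 20 CPM in the higher library and an exact 95% interval on 1 side of 1. The interval is of the ratio without the added 1. The calculation was tested on simulated data.

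Genes were named if they were in a gene list, or if they ranked among the 8 highest or lowest per library by the interval bound nearest to no change, at 50 CPM or more and at 0.5 or more of the level in all other cells, with markers of other cell types, mitochondrial, ribosomal protein, haemoglobin, immunoglobulin and sex-linked marker genes left out. For lymphatic against blood endothelial cells the 12 highest and 8 lowest were ranked by the smallest of the ratios. Genes with no UMI are given as bounds against 3 UMIs per library. List medians cover genes of at least 5 CPM. Gene positions are from GENCODE M21 on GRCm38.

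The marker genes, the gene lists, the naming rule and the choice of these cells were made with earlier results of these data known. Scrublet (scanpy 1.11.5) was run at 0.8% expected doublets per 1000 barcodes. The cells with the highest scores were marked up to that share of each library, with no cut on the score itself. Marked cells were kept. The alternatives were another marker sum, each rule gene left out, a stricter filter, thinning, doublets removed, other minimum levels and pseudocount, and other scalings. Leaving out the Reln-only cells, alone or with the doublets, the richest cell of each gene and the denominator of 3 classes were chosen after seeing the data. Thinning draws 3000 UMIs a cell and leaves out shallower cells.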

Additional observations from a re-analysis of the deposited data

Results flagged for a closer look

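In 6 genes taken by rank, the 95% counting intervals of the change from unamputated lay on opposite sides of no change in lymphatic and blood endothelial cells. With 1 library a condition, none of these differences between the cell types was tested. At 12 dpa the log2 ratios were -5.24 for Mlip, -3.55 for Apod and -2.75 for Egfl8, against 1.01, 1.27 and 0.46 in blood endothelial cells. In Mmrn1 or Prox1 cells Mlip had no UMI, Apod had -2.55 and Egfl8 -0.04. One unamputated cell held 69.4% of the Apod UMIs, and without it the ratio was -1.87. At 17 dpa Runx2 had -2.04 and Ptprd -2.04, against 0.57 and 0.67. These were -2.09 and -1.27 in Mmrn1 or Prox1 cells, and -0.53 and -0.85 without marked doublets, where 8 of the 14 cells left had Reln alone. At 28 dpa Opcml had 5.01 against -1.79, with all of its lymphatic UMIs there in 1 cell and a ratio of -1.41 without that cell. Another 4 ranked genes, Ltbp2 and Lama2 at 12 dpa and Nrg3 and Tnc at 17 dpa, had opposite signs in the 2 cell types, with a blood endothelial interval that held no change.

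Outside the comparisons, the lymphatic cells at 12 dpa held 1113 UMIs of Xist, while those of the other libraries held 0. UMIs of 4 Y-linked genes were 1397, 0, 125 and 71 in the unamputated, 12, 17 and 28 dpa libraries.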

How the results depend on the processing

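The order of the lymphatic shares, 12 dpa above unamputated above 17 dpa above 28 dpa, held for the share of endothelium under all 10 alternatives tried and for the share of all cells under all 9, while the shares themselves moved. As a share of endothelium, they were 9.22% in unamputated digits and 3.24% at 17 dpa with Reln left out of the rule, 12.4% in unamputated digits with a stricter cell filter, and 12.3% at 12 dpa after thinning. Against the 3 endothelial classes alone they were 15.1, 22.0, 10.3 and 8.13%, and without marked doublets 1.60% at 17 dpa and 1.49% at 28 dpa. As a share of all filtered cells they were 1.54, 1.89, 0.332 and 0.197% after thinning, 2.22% in unamputated digits with the stricter filter, 0.368% at 17 dpa without Reln, and 0.176 and 0.127% at 17 and 28 dpa without doublets.

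The counts of genes past the fold moved with the minimum level, with single cells and with the removal of marked doublets. The number of genes tested moved as well, from 7551, 7968 and 7927 in the main setting. At 12 dpa, 17 genes were higher and 100 lower of 4387 at a minimum of 50 CPM, and 242 and 701 of 18795 with no minimum. Without the richest cell of each gene they were 24 and 151 of 7271. Also at 12 dpa, 85 of 7443 were higher without doublets and 116 of 7379 lower in Mmrn1 or Prox1 cells. At 17 dpa the counts were 930 and 712 of 8359 without doublets and 194 and 153 of 4621 at 50 CPM. There 640 of 18367 were higher with no minimum and 134 of 7452 without the richest cell. At 28 dpa 240 of 4668 were higher at 50 CPM and 123 of 7361 without the richest cell. Between lymphatic and blood endothelial cells, 357 of 23091 were lower with no minimum, beside 197 of 7860. Leaving out 1 library at a time gave 250 to 309 higher and 206 to 255 lower, and 233 to 238 of the 241 and 193 to 195 of the 197 were shared. The identity list's medians without doublets were -2.09 and -1.12 at 17 and 28 dpa, and -0.98 and -1.20 in the unmarked Mmrn1 or Prox1 cells.

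Of 480 values of named genes under the alternatives, 20 changed sign, mostly genes whose UMIs sit in 1 cell. In Mmrn1 or Prox1 cells Inhba had -1.83 at 12 dpa, Chil1 -0.40, Cxcl2 -0.61, Tnfsf8 -1.85 and Hpse2 0.31 at 17 dpa, and Cxcl2 -3.74 and Ccl7 -1.24 at 28 dpa. Without the richest cell Ltbp2 had -0.022 and Inhba -2.46 at 12 dpa, Chil1 -0.63, Tnfsf8 -1.80 and Hpse2 0.61 at 17 dpa, and Myoc -0.63, Opcml -1.41, Cxcl2 -1.21, C4b -1.55, Pcolce2 -2.82 and Ccl7 -1.23 at 28 dpa. With a marker sum of 5, Chil1 had -0.65 at 17 dpa, and without doublets Ifitm1 had -0.46 at 28 dpa. The dissociation list's median at 28 dpa was -0.016 with the mean of per-cell CPM.

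Shares of lymphatic cells with a UMI moved with depth. Unthinned, in the order unamputated, 12, 17 and 28 dpa, they were 89.6, 82.0, 67.4 and 73.5% for Pdpn, 88.7, 88.6, 65.2 and 76.5% for Flt4 and 90.5, 86.8, 69.6 and 73.5% for Itga9. In the first of these libraries they were 73.3% for Lyve1, 13.6% for Foxc2, 35.3% for Foxp2, 4.98% for Cldn11 and 25.8% for Gata2. At 12 dpa they were 69.5% for Lyve1, 15.0% for Foxc2, 26.9% for Foxp2 and 20.4% for Gata2, and Foxp2 had 23.9% at 17 dpa. At 17 dpa without doublets, where 8 of 14 cells had Reln alone, 14.3% had Lyve1, 21.4% Ccl21a, 14.3% Flt4, 0% Foxc2 and 0% Cldn11. In Mmrn1 or Prox1 cells Ccl21a had 96.4% in unamputated digits and 80.6% at 17 dpa, and Pdpn 74.7% and Flt4 82.5% in unamputated digits. The cause of these changes was not tested.

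No paired analysis was possible because each condition is 1 library. The 46 and 34 cells at 17 and 28 dpa limit every value there, since 1 UMI at 28 dpa is 4.44 CPM, and doublet marking covers most of these cells.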
